A study of Mus musculus with 285 samples.

Results

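The comparison is between CA3 neurons of mice that received FLASH 1x10Gy and CA3 neurons of CTRL mice, 24 h after the dose. Its members are the libraries whose labels read Neurones for the cell type and CA3 for the region, 3 FLASH 1x10Gy mice and 3 CTRL mice, 1 library per mouse, 6 of the 285 libraries of the series. The mice were female C57BL/6J, with no transgene, whole brain irradiated at 10 weeks of age according to the methods (9 weeks in the series' design text). FLASH 1x10Gy is 10 Gy given in 1 pulse at ultra-high dose rate, and CTRL mice were sham-irradiated. The 9 other CA3 neuron libraries, 3 mice each of FLASH 3x10Gy, CONV 1x10Gy and CONV 3x10Gy (CONV is the conventional dose rate), were used to estimate slide effects and the spread. Neurons were the NeuN-stained segment of CA3 on formalin-fixed sections, read with the GeoMx panel, in which an oligonucleotide tag is counted for each gene. A segment is a small pool of cells, so fewer cells of a type and less RNA per cell cannot be told apart. The gene for NeuN, *Rbfox3*, chose the segments and is no finding.

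CA3 pyramidal cells receive the mossy fibers of the dentate gyrus, excite each other through recurrent collaterals and project to CA1, a circuit known for the storage and completion of memories. Such a cell fires and releases glutamate at a high cost in ATP: glycolysis and the mitochondrial respiratory chain make it, the sodium pump and the proton pump of synaptic vesicles spend it. Released vesicles are recovered by clathrin-mediated endocytosis, and the chaperone Hspa8 strips the clathrin coat from them.

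The labels put the 15 CA3 libraries on 5 slides and 3 library plates. CTRL mice A, B and C lay on slides 1, 2 and 4, and FLASH 1x10Gy mice A, B and C on slides 4, 5 and 5, so slide 4 alone held both treatments, with 1 mouse of each. No plate held both: all FLASH 1x10Gy libraries were on plate 3, and the CTRL libraries were on plates 1 and 2, so plate and treatment cannot be told apart here. The 6 libraries held 354041 to 1651691 counts in CTRL and 854075 to 1228004 in FLASH 1x10Gy (2-sided exact permutation p = 1). The background share of a library, its mean negative probe count divided by its mean gene count, was 61.6%, 61.4% and 78.3% in CTRL mice A, B and C and 57.5%, 59.6% and 54.2% in FLASH 1x10Gy mice A, B and C. Every FLASH 1x10Gy mouse lay below every CTRL mouse (exact permutation p = 0.1, the smallest that 3 against 3 mice can give). CTRL mouse C stood apart from the other CTRL mice, with the lowest total count of the 6 libraries and 2496 genes above the limit of quantification (the level set by the spread of the negative probes), against 5638 and 5376 in CTRL mice A and B and 5258 to 7008 in FLASH 1x10Gy. Results are therefore also given without CTRL mouse C and with the background share in the fit. The CA3 label held: all 9 tested markers of CA3 pyramidal cells were higher in the CA3 than in the DG and the CA1 library of each of the 6 mice, and their summed level was 1167 to 1723 CPM in CA3 against at most 545 CPM in DG and 506 CPM in CA1 (scaled by library size alone).

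Levels are counts scaled by TMM and library size (CPM), and changes are log2 folds of FLASH 1x10Gy against CTRL. The test was edgeR's quasi-likelihood F test on all 15 libraries in 1 fit, once with slide as a factor and once with no slide term. A gene is said to have risen or fallen only where its Benjamini-Hochberg adjusted p with slide was under 0.05. A gene kept the mice apart where all 3 FLASH 1x10Gy mice lay above, or all below, all 3 CTRL mice both in CPM and in log2 CPM with the slide effects removed, in the direction of both fits. The p-values rest on the spread among the mice of all 15 libraries, 3 a group, and not on the CTRL and FLASH 1x10Gy mice alone. Only 1 slide held both of these groups. The folds with slide therefore also draw on the other irradiated mice, through the slide effects.

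*Hspa8* (gene ID 15481), the constitutive heat shock cognate that refolds proteins and uncoats vesicles, was at 725, 568 and 297 CPM in CTRL mice A, B and C and at 964, 1027 and 1018 CPM in FLASH 1x10Gy mice A, B and C. The lowest FLASH 1x10Gy mouse was above the highest CTRL mouse, and the FLASH 1x10Gy mice were close to each other (mean 1003 CPM, SD 33.7) while the CTRL mice were spread (mean 529.9 CPM, SD 216). With slide effects removed the log2 CPM were at most 9.21 in CTRL and at least 10.69 in FLASH 1x10Gy. *Hspa8* rose by 1.92 (SE 0.32) on the log2 scale with slide (edgeR adjusted p = 1.56e-05). Without slide the fold was 0.90 (adjusted p = 0.948), and within slide 4 the FLASH 1x10Gy mouse was 1.69 above the CTRL mouse. Without CTRL mouse C the fold was 2.04 (adjusted p = 0.0402), and with the background share beside slide it was 1.67 (adjusted p = 0.0914).

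*Aldoa* (gene ID 11674), the fructose-bisphosphate aldolase of glycolysis, was at 885, 826 and 383 CPM in CTRL and at 1366, 1002 and 1354 CPM in FLASH 1x10Gy. The groups did not overlap, and CTRL mouse C was again the lowest. *Aldoa* rose by 1.90 (SE 0.34) with slide (edgeR adjusted p = 5.6e-05), against a fold of 0.81 without slide and 1.83 within slide 4. The call did not hold without CTRL mouse C (1.65, adjusted p = 0.219) or with the background share beside slide (1.12, adjusted p = 0.802).

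**Figure D1:**
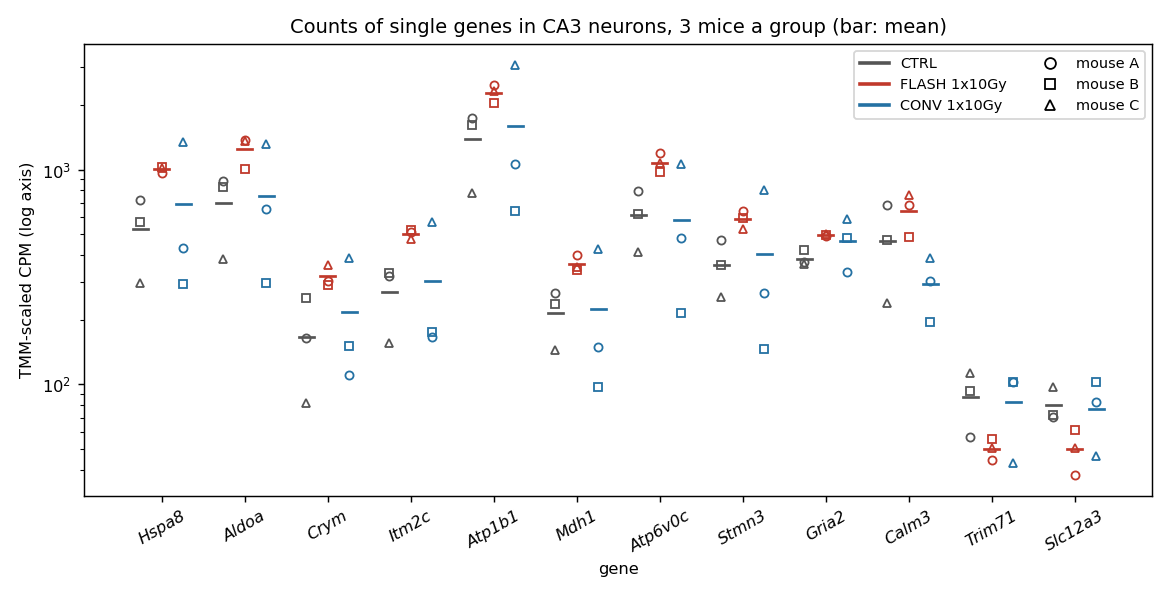
TMM-scaled CPM (log axis) of 12 named genes in CA3 neurons of CTRL, FLASH 1x10Gy and CONV 1x10Gy mice, 1 point per mouse (circle A, square B, triangle C) with the group mean as a bar. *Hspa8* lies at 964 to 1027 CPM in FLASH 1x10Gy and at 297 to 725 CPM in CTRL, while the ranges of *Calm3* overlap and *Trim71* and *Slc12a3* lie lower in FLASH 1x10Gy.

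Across the 10020 genes tested, 298 rose (2.97%) and 49 fell (0.489%) with slide in the fit, and 1627 (16.2%) had an unadjusted p under 0.05. Without slide edgeR called none in either direction, and 402 genes (4.01%) had an unadjusted p under 0.05. The mice were kept apart in both fits with FLASH 1x10Gy above CTRL for 824 genes (8.22%) and with FLASH 1x10Gy below CTRL for 513 genes (5.12%). The order in CPM was the narrower condition. On its own it was met by 934 genes upward and 648 downward, against 2618 and 2558 for the slide-adjusted values on their own. Order alone is a weak criterion here, as 3 against 3 mice can give no exact permutation p under 0.1. Of the genes that rose, 196 also kept the mice apart and 102 did not; of those that fell, 14 did and 35 did not. The number of calls changed with the model: the same 10020 genes also gave no call with slide as a random block in limma (959 at unadjusted p under 0.05), or in edgeR with plate in place of slide (1643), with plate beside slide (888), with the background share beside slide (560) or with the 6 libraries fitted alone (835). DESeq2 with slide called 320 rises and 1 fall. Leaving out CTRL mouse C left 7 rises and 1 fall, among them rises of *Hspa8*, *Itm2c*, *Crym*, *Mdh1*, *Stmn3* and *Tuba1b*. The separation of the mice was followed over the same settings. Without CTRL mouse C 733 of the 824 upward and 420 of the 513 downward genes stayed apart, and with the background share beside slide 649 and 398 did. With the background share and no slide term 364 and 253 did. Apart from rescaling, none of these settings could undo the order of the mice in CPM. Only the adjusted values and the direction of the folds could end a separation there.

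The 824 upward genes were mostly well detected: all 3 FLASH 1x10Gy mice were above the limit of quantification for 757 of them, against 4305 of all 10020 genes. Their median log2 fold was 0.69 with slide, 0.39 without slide and 0.70 within slide 4. The 513 downward genes were mostly dim. No FLASH 1x10Gy mouse was above the limit for 277 of them, and for 153 none of the 6 mice was. Their medians were -0.55 with slide, -0.34 without slide and -0.53 within slide 4. With genes sorted by mean CPM into 5 level classes of 2004 genes, the share apart upward went from 1.60% in the lowest through 2.25%, 3.24% and 7.63% to 26.4% in the highest, and the share apart downward was 5.29%, 7.34%, 5.69%, 3.59% and 3.69%. The background share moves with the treatment, as given above, and its part in this dependence on level was not tested. The upward share of a class below is therefore to be read against 26.4%, for highly expressed genes, as well as 8.22%. The median log2 fold also moved with level. It was 0.33 with slide and 0.18 without in the highest level class, against -0.03 and -0.01 for all genes tested. Class medians below are to be read against both. Of the 26 classes listed gene by gene with at least 10 members tested, 23 had a larger share apart upward than all genes. A larger share than the highest level class was reached by 17. Families taken by gene name are not in this count. Their upward shares were 14.1% for cytosolic and 5.97% for mitochondrial ribosomal protein genes, 0.437% for olfactory and 0% for vomeronasal receptor genes.

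**Figure D2:**
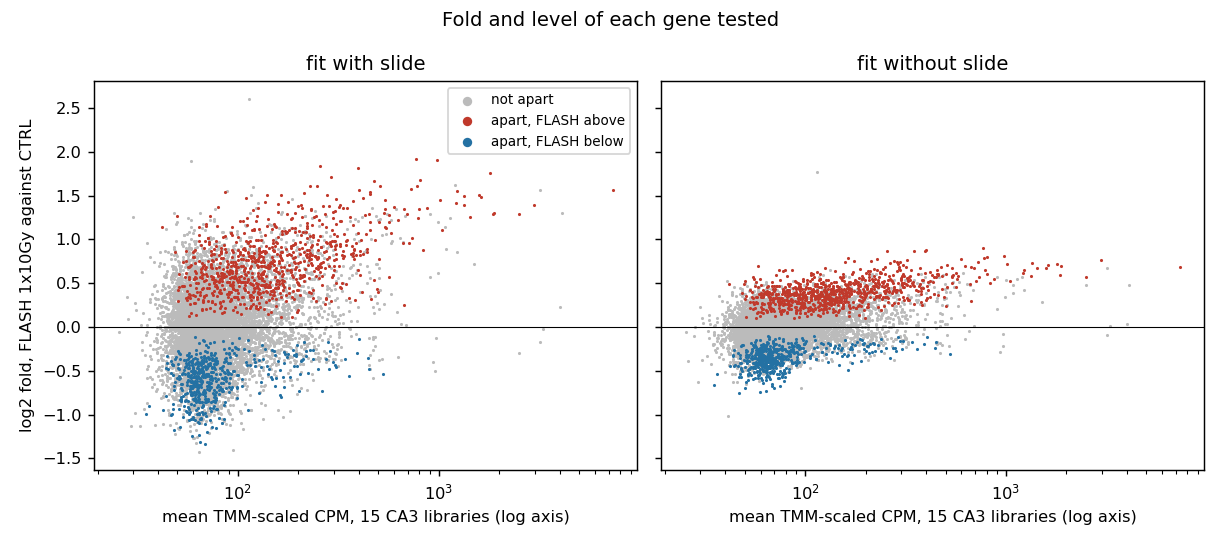
Log2 fold of FLASH 1x10Gy against CTRL (vertical) against mean TMM-scaled CPM over the 15 CA3 libraries (log axis), 1 point per gene tested, with slide on the left and without slide on the right. Genes apart upward lie mostly at high levels, 26.4% of the highest level class against 1.60% of the lowest, and folds are smaller without slide (median 0.39 against 0.69 for the genes apart upward).

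Glycolysis held 6 of 16 tested enzymes apart upward (37.5%) and none downward, and 8 enzymes rose. The class median was 0.92 with slide and 0.41 without. All genes tested had -0.03 and -0.01, and the highest level class, which holds 15 of the 16 enzymes, had 0.33 and 0.18. The 6 were *Gpi1*, *Pfkp*, *Aldoa*, *Tpi1*, *Eno1* and *Eno2*. *Eno2*, the enolase of neurons, was at 655, 635 and 278 CPM in CTRL and 884, 739 and 915 CPM in FLASH 1x10Gy, and rose by 1.29 (SE 0.32, adjusted p = 0.00558). *Eno1*, whose probe the panel assigns to more than 1 gene ID, rose by 1.57 (SE 0.32). *Gapdh*, the dehydrogenase of the same pathway, and *Pkm*, its pyruvate kinase, rose with overlapping mice, by 1.62 and 1.24. *Mdh1*, the cytosolic malate dehydrogenase that carries reducing equivalents toward the mitochondrion, is outside the list: at 265, 238 and 145 CPM in CTRL and 400, 342 and 352 CPM in FLASH 1x10Gy it kept the mice apart and rose by 1.71 (SE 0.29, adjusted p = 2.43e-05). All 6 enzymes of the list stayed apart without CTRL mouse C and with the background share beside slide. With the background share and no slide term 5 of them did. None of these settings could undo the order in CPM itself.

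The respiratory chain was described in 2 classes. Of complexes II to V, which hold cytochrome c oxidase and the ATP synthase, 20 of 40 genes were apart upward and 17 rose, with a median of 0.92 with slide and 0.38 without. Complex I, the NADH dehydrogenase, had 10 of 38 apart (26.3%, close to the share of the highest level class) and 1 that rose, *Ndufa4*, with medians of 0.50 and 0.27. *Ndufa4*, which is now known to sit in cytochrome c oxidase, was at 272, 268 and 137 CPM in CTRL and 346, 294 and 291 CPM in FLASH 1x10Gy. Of the ATP synthase, *Atp5b*, the catalytic beta subunit, was at 298, 235 and 176 CPM in CTRL and 449, 387 and 478 CPM in FLASH 1x10Gy. The lowest FLASH 1x10Gy mouse was well above the highest CTRL mouse, and *Atp5b* rose by 1.36 (SE 0.29, adjusted p = 0.000903; 0.86 without slide). *Cox5b* and *Cox4i1*, subunits of cytochrome c oxidase, rose by 1.53 (SE 0.30) and 1.38 (SE 0.29). No respiratory gene was apart downward. With the background share beside slide 18 of the 20 genes of complexes II to V and 8 of the 10 of complex I stayed apart, and with the background share and no slide term 12 and 3 did.

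Because genes of the respiratory chain lay together, their promoters were searched on both strands for the letters GCGC, any base and TGCGC in a row (GCGCA, any base and GCGC on the other strand), the core bound by NRF1, a regulator of respiratory genes, in the 250 bases before the start (RefSeq, GRCm38.p6). Promoters were found for 63 of the 78 respiratory genes, and 11 held the letters (17.5%), as did 6 of the 23 with a promoter among those apart upward. Counted by promoter, the letters stood in 3.74% of all 32851 promoters. The other shares count genes with a promoter, a gene holding the letters if any of its promoters did. They were 9.14% of genes tested, 11.6% of genes apart upward and 4.62% of genes apart downward. The 6 promoters are shown 5′ to 3′ along the gene, each on the minus strand, with the letters that match in capitals: *Atp5c1* (gamma subunit of the ATP synthase) at chr2:10080433-10080474, *Atp5g2* (its membrane ring) at chr15:102671055-102671114, *Atp5h* (its stalk) at chr11:115420026-115420085, *Cox6a1* (cytochrome c oxidase) at chr5:115349086-115349145, *Ndufs6* (complex I) at chr13:73328483-73328523 and *Sdha* (complex II) at chr13:74350304-74350363.
Atp5c1: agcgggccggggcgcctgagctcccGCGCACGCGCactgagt
Atp5g2: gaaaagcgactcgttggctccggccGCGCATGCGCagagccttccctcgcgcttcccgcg
Atp5h: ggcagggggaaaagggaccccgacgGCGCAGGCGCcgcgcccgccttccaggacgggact
Cox6a1: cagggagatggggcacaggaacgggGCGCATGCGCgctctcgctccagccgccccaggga
Ndufs6: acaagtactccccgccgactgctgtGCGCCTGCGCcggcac
Sdha: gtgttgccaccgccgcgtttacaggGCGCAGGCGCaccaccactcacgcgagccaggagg

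Of these, *Atp5g2* was at 91.8, 89.6 and 46.9 CPM in CTRL and 138, 123 and 115 CPM in FLASH 1x10Gy and rose by 1.21 (SE 0.31, adjusted p = 0.00845). *Atp5h* was at 142, 148 and 109 CPM in CTRL and 186, 213 and 234 CPM in FLASH 1x10Gy and rose by 1.07 (SE 0.29, adjusted p = 0.0152). *Atp5c1* rose by 1.03 and *Cox6a1* by 0.98. *Sdha* and *Ndufs6* kept the mice apart without passing the test: *Sdha* was at 97.8, 103 and 106 CPM in CTRL and 151, 110 and 112 CPM in FLASH 1x10Gy (0.49, SE 0.28, adjusted p = 0.392), and *Ndufs6* had 0.50 (SE 0.29, adjusted p = 0.407). In *Sdha* CTRL mouse C was the highest of the CTRL mice, and in *Atp5g2* it was the lowest.

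Of the chaperones of the cytosol, mitochondria and endoplasmic reticulum 5 rose, with a class median of 0.64 with slide and 0.23 without. Of 33 tested genes 10 were apart upward (30.3%, against 26.4% in the highest level class) and none downward. Besides *Hspa8* these were *Hsp90ab1*, the constitutive HSP90, and *Hspa9*, the HSP70 of mitochondria, with *Hsp90aa1*, *Dnaja1*, *Dnaja2*, *Dnajb6*, *Dnajc5*, *Dnajc6* and *Cct5*. *Hsp90ab1* was at 683, 590 and 313 CPM in CTRL and 818, 782 and 973 CPM in FLASH 1x10Gy, and rose by 1.35 (SE 0.32, adjusted p = 0.00302). *Hspa9* rose by 1.54 (SE 0.36), from 83.2, 84.1 and 39.1 CPM in CTRL to 102, 97.4 and 99.8 CPM in FLASH 1x10Gy. Proteins marked for destruction carry ubiquitin, and of 10 neuronal ubiquitin genes 3 were apart upward (30%) and 2 rose. *Ubb*, a polyubiquitin gene with a probe for more than 1 gene ID, was at 7669, 6393 and 3260 CPM in CTRL and 9591, 7772 and 10570 CPM in FLASH 1x10Gy (1.56, SE 0.45, adjusted p = 0.0224). Its FLASH 1x10Gy mouse B was barely above CTRL mouse A. *Uchl1*, a neuronal ubiquitin hydrolase, rose by 1.2 (SE 0.30). The proteasome, which degrades ubiquitin-tagged proteins, was at the background: 1 of its 30 subunits was apart upward (*Psmc3*, 0.47, adjusted p = 0.419), none rose or fell, and the median was -0.02 with slide and 0.05 without.

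**Figure D3:**
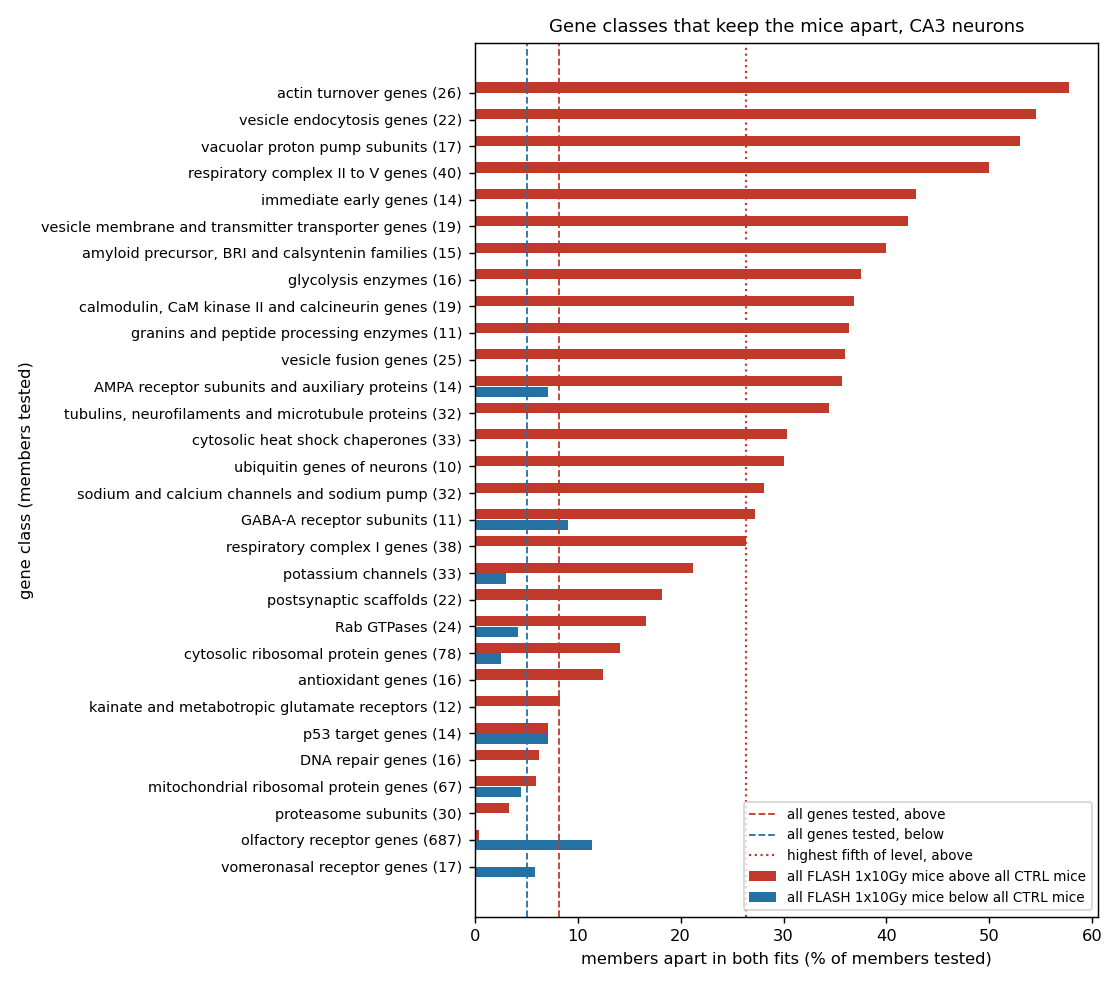
Share of each gene class that kept all mice of the groups apart in both fits, as a percent of members tested (horizontal), with members tested in parentheses; red bars are FLASH 1x10Gy above CTRL, blue bars below, and dashed or dotted lines the shares of all genes (8.22% and 5.12%) and of the highest level class (26.4% upward). Actin turnover genes (57.7%) and vesicle endocytosis genes (54.5%) lead, and of the classes plotted olfactory receptor genes have the largest downward share (11.4%).

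The vacuolar proton pump acidifies synaptic vesicles and lysosomes, and its gradient fills vesicles with transmitter. Of its 17 subunits and accessory proteins 9 were apart upward (52.9%) and 9 rose, with a median of 0.94 with slide and 0.38 without; all 17 had folds above 0 with slide and 16 without. *Atp6v0c*, of the membrane ring (probe shared by more than 1 gene ID), was at 799, 622 and 414 CPM in CTRL and 1190, 975 and 1068 CPM in FLASH 1x10Gy. CTRL mouse C was the lowest, and the gap between the groups was smaller than the spread among the CTRL mice. *Atp6v0c* rose by 1.68 (SE 0.32, adjusted p = 0.000292; 0.80 without slide). *Atp6ap2*, an accessory protein also known as the prorenin receptor, rose by 1.38 (SE 0.30) and *Atp6v0e2* by 1.29 (SE 0.30). With the background share and no slide term 3 of the 9 stayed apart.

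The synaptic vesicle cycle was divided into fusion, membrane and recovery. Fusion genes had 9 of 25 apart upward (36%) and 8 that rose (median 0.51 with slide, 0.30 without). *Snap25*, a t-SNARE of the fusion complex, was at 1736, 1269 and 821 CPM in CTRL and 2232, 1786 and 2136 CPM in FLASH 1x10Gy, so that FLASH 1x10Gy mouse B was just above CTRL mouse A; it rose by 1.51 (SE 0.35, adjusted p = 0.00282). *Cplx2*, a complexin that clamps the fusion complex, rose by 1.54 (SE 0.30), and *Rab3a*, the GTPase of docked vesicles, by 1.52 (SE 0.30). Also apart were, among others, *Vamp2*, *Syt1*, *Napb*, *Snap47* and *Unc13a*. Vesicle membrane and transporter genes had 8 of 19 apart and 7 that rose (median 0.79 and 0.33). Of these, *Syp*, the most used vesicle marker, was at 1206, 1144 and 575 CPM in CTRL and 1471, 1418 and 1615 CPM in FLASH 1x10Gy (1.41, SE 0.34, adjusted p = 0.00355), and *Syn1*, which tethers reserve vesicles, rose by 1.14 (SE 0.30).

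Endocytosis genes, *Hspa8* among them, had the second largest upward share of the classes, 12 of 22 (54.5%), and 5 rose (median 0.81 with slide, 0.38 without). *Clta*, a clathrin light chain, was at 259, 280 and 106 CPM in CTRL and 337, 377 and 408 CPM in FLASH 1x10Gy and rose by 1.38 (SE 0.29, adjusted p = 0.000873). *Eps15*, an early coat protein, was at 137, 129 and 89.9 CPM in CTRL and 276, 169 and 179 CPM in FLASH 1x10Gy and rose by 1.41 (SE 0.29); FLASH 1x10Gy mouse A was the high one. The others apart were *Dnm1*, *Cltc*, *Ap2a2*, *Ap2b1*, *Ap2m1*, *Ap2s1*, *Sh3gl2*, *Synj1* and *Dnajc6*, which cover the coat, its adaptor, the dynamin that cuts vesicles free and the uncoating enzymes. All 12 stayed apart without CTRL mouse C and with the background share beside slide, and 6 of them did with the background share and no slide term. As above, only the adjusted values and the fold direction were open to change in these settings.

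Glutamate receptors take up the signal on the receiving side. Of 14 AMPA receptor subunits and auxiliary proteins tested, 5 were apart upward (35.7%), *Shisa7* was apart downward and 3 rose (median 0.39 with slide, 0.19 without). *Gria2*, the subunit that makes AMPA receptors impermeable to calcium, was at 371, 420 and 364 CPM in CTRL and 492, 498 and 503 CPM in FLASH 1x10Gy. All FLASH 1x10Gy mice were above all CTRL mice with little spread in either group, and CTRL mouse C was not lower than the other CTRL mice by more than their own spread. The fold was 0.32 with slide (SE 0.28, adjusted p = 0.610), 0.37 without and 0.43 within slide 4, and did not pass the test. *Cnih2*, cornichon, which slows AMPA receptor closing, rose by 0.99 (SE 0.29, adjusted p = 0.032), and *Nsg2*, of AMPA receptor traffic, by 0.93 (SE 0.29). *Cacng7*, a TARP, kept the mice apart at 82.4, 84.1 and 54.7 CPM against 110, 96.2 and 88.7 CPM, but its fold of 0.44 (adjusted p = 0.529) was -0.27 without CTRL mouse C and -0.11 with the background share beside slide. Of NMDA receptor subunits 3 were tested. *Grin2b* kept the mice apart at 395, 435 and 266 CPM against 459, 480 and 452 CPM (0.59, adjusted p = 0.248), while *Grin1*, the obligatory subunit, overlapped (0.67, adjusted p = 0.205). Kainate and metabotropic receptors had 1 of 12 apart upward (8.33%, about the 8.22% of all genes). It was *Grik4*, a kainate subunit typical of CA3, whose fold was 0.11 with slide.

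Calcium signalling genes (calmodulin, CaM kinase II and calcineurin) had 7 of 19 apart upward and 4 that rose, with a median of 0.72 with slide and 0.44 without. *Calm2*, a calmodulin gene, was at 1965, 1740 and 825 CPM in CTRL and 2139, 2264 and 2481 CPM in FLASH 1x10Gy and rose by 1.29 (SE 0.35, adjusted p = 0.0145). *Calm3*, which also encodes calmodulin, rose by 1.23 (SE 0.31, adjusted p = 0.00819), yet at 682, 468 and 238 CPM in CTRL and 681, 488 and 764 CPM in FLASH 1x10Gy its mice overlapped and CTRL mouse A was level with FLASH 1x10Gy mouse A. *Ppp3ca*, the calcineurin catalytic subunit, kept the mice apart at 262, 215 and 160 CPM against 291, 302 and 290 CPM (0.68, adjusted p = 0.169). *Ptk2b*, a calcium-activated tyrosine kinase, did so at 202, 207 and 172 CPM against 290, 242 and 299 CPM (0.77, SE 0.27, adjusted p = 0.0895). *Camk2b*, the beta subunit of the kinase, overlapped (0.72, adjusted p = 0.153). With the background share and no slide term 1 of the class was apart.

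GABA-A receptor subunits had 3 of 11 apart upward (27.3%, close to the 26.4% of the highest level class) and *Gabra3* downward. *Gabra5*, an alpha subunit found mostly outside the synapse, kept the mice apart at 218, 171 and 160 CPM against 234, 259 and 257 CPM (0.52, adjusted p = 0.333). *Gabra3*, which no mouse of the 6 had above the limit of quantification, had -0.90 (adjusted p = 0.369). Postsynaptic scaffolds and adhesion proteins had 4 of 22 apart upward (18.2%), under the share of the highest level class, and none rose (median 0.22 with slide, 0.14 without). *Dlg4*, which encodes PSD-95, was at 359, 353 and 207 CPM in CTRL and 393, 452 and 511 CPM in FLASH 1x10Gy (0.89, adjusted p = 0.0547).

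Sodium and calcium channels and the ion pumps had medians of 0.30 with slide and 0.18 without, near the 0.33 and 0.18 of the highest level class. Of 32 genes 9 were apart upward (28.1%, close to the 26.4% of the highest level class) and 4 rose. Among these were pumps: *Atp1b1*, a subunit of the sodium pump, *Atp2a2*, the calcium pump of the endoplasmic reticulum, and *Atp2b2*, a calcium pump of the cell membrane. *Atp1b1* was at 1747, 1615 and 782 CPM in CTRL and 2485, 2036 and 2328 CPM in FLASH 1x10Gy, and rose by 1.76 (SE 0.36, adjusted p = 0.000596; 0.72 without slide). *Atp2a2* rose by 0.98 (SE 0.28). Potassium channels had 7 of 33 apart upward (21.2%) and *Kcna6* downward, under the share of the highest level class.

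The cytoskeleton gave the class with the largest upward share. Actin turnover genes had 15 of 26 apart upward (57.7%) and 9 that rose, with a median of 0.86 with slide and 0.43 without. *Cfl1*, cofilin, which severs actin filaments, was at 1471, 1120 and 661 CPM in CTRL and 1628, 1486 and 1795 CPM in FLASH 1x10Gy, FLASH 1x10Gy mouse B lying just above CTRL mouse A (1.39, SE 0.34, adjusted p = 0.00551). *Arpc3*, a subunit of the Arp2/3 nucleator, was at 103, 116 and 50.8 CPM in CTRL and 140, 155 and 171 CPM in FLASH 1x10Gy and rose by 1.36 (SE 0.31), and *Tmsb4x*, thymosin beta 4, which holds actin monomers, rose by 1.30 (SE 0.36). *Pfn2*, the neuronal profilin, rose by 1.05 (SE 0.29, adjusted p = 0.0192) with overlapping mice (212, 167 and 102 CPM against 229, 208 and 272 CPM). Tubulin, neurofilament and microtubule genes had 11 of 32 apart upward and 13 that rose, and all 32 had folds above 0 in both fits (median 0.83 and 0.37). *Stmn3*, a stathmin that binds tubulin, was at 468, 360 and 254 CPM in CTRL and 642, 593 and 531 CPM in FLASH 1x10Gy and rose by 1.66 (SE 0.30, adjusted p = 7.62e-05). *Tuba1b*, an alpha tubulin with a probe for more than 1 gene ID, rose by 1.51 (SE 0.29). With the background share and no slide term 8 actin and 3 microtubule genes were apart.

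Membrane proteins of the amyloid precursor and BRI families had 6 of 15 apart upward and 7 that rose (median 0.93 with slide, 0.35 without). *Itm2c*, a BRI protein that binds the amyloid precursor, was at 318, 331 and 156 CPM in CTRL and 512, 522 and 477 CPM in FLASH 1x10Gy. The groups stood far apart, and *Itm2c* rose by 1.82 (SE 0.30, adjusted p = 1.51e-05; 0.87 without slide; adjusted p = 0.0317 without CTRL mouse C). *App* itself was at 1245, 1340 and 727 CPM in CTRL and 1654, 1773 and 1893 CPM in FLASH 1x10Gy and rose by 1.26 (SE 0.33, adjusted p = 0.0122). Granins and peptide processing enzymes, which fill dense-core vesicles, had 4 of 11 apart upward and 3 that rose: *Chgb*, chromogranin B, was at 1263, 989 and 637 CPM in CTRL and 1496, 1519 and 1547 CPM in FLASH 1x10Gy (1.55, SE 0.34), and *Cpe*, the carboxypeptidase of peptide precursors, rose by 1.49 (SE 0.33). *Crym*, mu-crystallin, which binds thyroid hormone, belongs to none of the lists; it was at 165, 252 and 82.1 CPM in CTRL and 304, 290 and 360 CPM in FLASH 1x10Gy and rose by 1.84 (SE 0.30, adjusted p = 1.51e-05; 0.87 without slide).

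Ribosomal protein genes and Rab GTPases had smaller upward shares than the highest level class. Cytosolic ribosomal protein genes, of which 71 of 78 belong to that level class, had 11 apart upward (14.1%, against 26.4%) and 2 downward, and 3 rose. Their median was 0.19 with slide and 0.10 without, below the 0.33 and 0.18 of that level class. *Rps7* kept the mice apart at 148, 115 and 113 CPM against 173, 172 and 169 CPM (0.90, adjusted p = 0.0573). Mitochondrial ribosomal protein genes had 4 of 67 apart upward (5.97%) and 3 downward, with a median of 0.04. Rab GTPases and their regulators had 4 of 24 apart upward and 1 downward, with *Gdi2*, which recycles Rab proteins, rising by 1.05 (SE 0.32, adjusted p = 0.0356).

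Classes that respond to radiation or activity were of mixed kind. The immediate early genes, switched on by activity and by stress, had 6 of 14 apart upward (42.9%) and 2 that rose (median 0.38 with slide, 0.31 without, 0.03 within slide 4). *Junb* was at 103, 69.7 and 66.5 CPM in CTRL and 125, 112 and 117 CPM in FLASH 1x10Gy and rose by 1.11 (SE 0.30, adjusted p = 0.0163), and *Jund* rose by 0.96 (SE 0.29); both are partners in the AP-1 factor. With the background share and no slide term 1 of the 6 stayed apart. For DNA repair 1 of 16 genes was apart upward (6.25%, below the 8.22% of all genes). It was *Parp1*, which senses strand breaks, at 135, 137 and 133 CPM against 179, 171 and 154 CPM (0.48, adjusted p = 0.394). Of 14 p53 targets *Plk2* was apart upward (7.14%, against 8.22% of all genes), and none rose or fell. *Rrm2b*, a p53-induced ribonucleotide reductase subunit, was apart downward (7.14%, against 5.12%). It was at 195, 192 and 195 CPM against 184, 161 and 147 CPM (-0.30, adjusted p = 0.614). Antioxidant genes had 2 of 16 apart upward (12.5%, against 8.22% of all genes). Of these *Sod1*, the cytosolic superoxide dismutase, rose by 0.90 (SE 0.28, adjusted p = 0.0457).

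In the downward direction olfactory receptor genes, which are used by sensory cells of the nose, had 78 of 687 tested genes apart downward, 3 upward and 20 that fell. The downward share was 11.4%, against 5.12% of all genes, of which 0.489% fell. The same rule gave 97 apart downward in FLASH 3x10Gy, 15 in CONV 1x10Gy and 17 in CONV 3x10Gy, against 4.43%, 2.64% and 2.37% of all genes. For FLASH 1x10Gy it gave 88 in DG and 57 in CA1, against 5.67% and 3.94%. The median fold of these receptor genes in CA3 for FLASH 1x10Gy was -0.39 with slide and -0.14 without. *Olfr167* was at 74.6, 68.6 and 117 CPM in CTRL and 37.9, 49.8 and 53 CPM in FLASH 1x10Gy and fell by 1.23 (SE 0.35, adjusted p = 0.0228); no FLASH 1x10Gy mouse had it above the limit of quantification and CTRL mouse C was highest. *Trim71*, an RNA-binding ubiquitin ligase of early development, was at 56.6, 92.9 and 113 CPM in CTRL and 44.4, 55.5 and 50.5 CPM in FLASH 1x10Gy and fell by 1.34 (SE 0.34, adjusted p = 0.00729). *Slc12a3*, the sodium chloride cotransporter of the kidney, was at 70.4, 71.9 and 97.7 CPM in CTRL and 37.9, 61.1 and 50.5 CPM in FLASH 1x10Gy and fell by 1.31 (SE 0.35, adjusted p = 0.0139). Neither was above the limit in a FLASH 1x10Gy mouse. *Odf3*, of sperm tails, fell by 1.2 (SE 0.34), and no FLASH 1x10Gy mouse had it above the limit. At these levels the values lie near the negative probes, and CTRL mouse C, with the highest background share, had the highest value of each of these 4 genes. The part of that background in the falls was not tested.

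Markers of cell types moved with the groups as follows. Of 12 general neuron markers, all in the highest level class, 10 were apart upward (83.3%, against 26.4% of that class and 8.22% of all genes). Of the 12, 7 rose, and the median was 1.2 with slide and 0.60 without, against 0.33 and 0.18 in that level class. Their summed level was 3041 to 5585 CPM in CTRL and 6641 to 7211 CPM in FLASH 1x10Gy. The 12 include *Rbfox3*, which chose the segments. They also include *Snap25*, *Uchl1*, *Stmn3* and *Eno2*, already counted in classes above, so the list is not independent of those classes. *Thy1*, a surface protein of projection neurons, was at 336, 322 and 207 CPM in CTRL and 569, 539 and 510 CPM in FLASH 1x10Gy and rose by 1.56 (SE 0.29, adjusted p = 0.000131; 0.88 without slide). The 13 oligodendrocyte and myelin markers summed to 1380 to 1941 CPM in CTRL and 1347 to 1448 CPM in FLASH 1x10Gy. Of them 2 genes were apart downward (15.4%, against 5.12% of all genes), *Olig2* and *Opalin*. The 4 endothelial markers summed to 262 to 324 CPM in CTRL and 249 to 268 CPM in FLASH 1x10Gy. Both sums overlapped between the groups here and did not without TMM scaling (1488 to 1941 against 1328 to 1380 CPM, and 262 to 350 against 234 to 260 CPM). Astrocyte markers overlapped (840 to 1059 CPM in CTRL and 1002 to 1101 CPM in FLASH 1x10Gy, 10 genes), as did interneuron markers (731 to 964 and 731 to 1363 CPM, 9 genes), and 1 microglia marker passed the filter. Of the interneuron markers 3 nevertheless rose, *Gad1*, *Sst* and *Cck*, none of which kept the mice apart, and the class median was 0.73 with slide and -0.10 without. No astrocyte marker was called or apart, with a median of 0.41 with slide and -0.003 without. The summed level of neuron markers was thus higher in every FLASH 1x10Gy mouse, and the part of segment content in the classes above was not tested. Of the 9 CA3 markers 2 were apart upward, *Nnat* and *Grik4*. *Nnat* was at 315, 333 and 195 CPM in CTRL and 548, 345 and 431 CPM in FLASH 1x10Gy and rose by 1.48 (SE 0.30, adjusted p = 0.000596).

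The other irradiated groups were compared with the same 3 CTRL mice, so these comparisons share their controls. No gene was called with slide by edgeR in FLASH 3x10Gy (476 genes at unadjusted p under 0.05, 4.75%), CONV 1x10Gy (432, 4.31%) or CONV 3x10Gy (507, 5.06%). Genes apart upward were 4.16%, 2.69% and 1.97%, and apart downward 4.43%, 2.64% and 2.37%, in that order. *Hspa8* was at 609, 993 and 1193 CPM in the FLASH 3x10Gy mice, 433, 293 and 1350 CPM in CONV 1x10Gy and 555, 717 and 811 CPM in CONV 3x10Gy. Its folds against CTRL were 0.27, 0.46 and -0.13 with slide and 0.79, 0.38 and 0.37 without. Those of *Aldoa* were 0.39, 0.33 and 0.04 with slide and 0.82, 0.11 and 0.47 without, so that in FLASH 3x10Gy the fold without slide was about that of FLASH 1x10Gy (0.81). In *Hspa8* mice B and C of FLASH 3x10Gy and mouse C of CONV 1x10Gy were above the lowest FLASH 1x10Gy mouse. In *Aldoa* the same mice were, and so was mouse C of CONV 3x10Gy, at 1294 CPM against 1002 CPM in the lowest FLASH 1x10Gy mouse. With slide, median folds of the classes named next were between -0.14 and 0.16 in these 3 comparisons. Glycolysis had 0.16, -0.04 and -0.13, complexes II to V 0.07, 0.07 and -0.09, endocytosis 0.13, 0.13 and -0.09, and actin turnover 0.08, 0.02 and -0.14. Without slide the medians were 0.40, -0.06 and 0.17 for glycolysis, 0.37, 0.05 and 0.17 for complexes II to V, 0.43, 0.10 and 0.21 for endocytosis and 0.32, 0.004 and 0.23 for actin turnover. FLASH 3x10Gy thus lay near FLASH 1x10Gy without slide (0.41, 0.38, 0.38 and 0.43 in the same order) and well below it with slide. Other classes went beyond -0.14 to 0.16 with slide. The immediate early genes had medians of 0.36, 0.05 and 0.27, and postsynaptic scaffolds 0.04, -0.18 and -0.12.

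**Figure D4:**
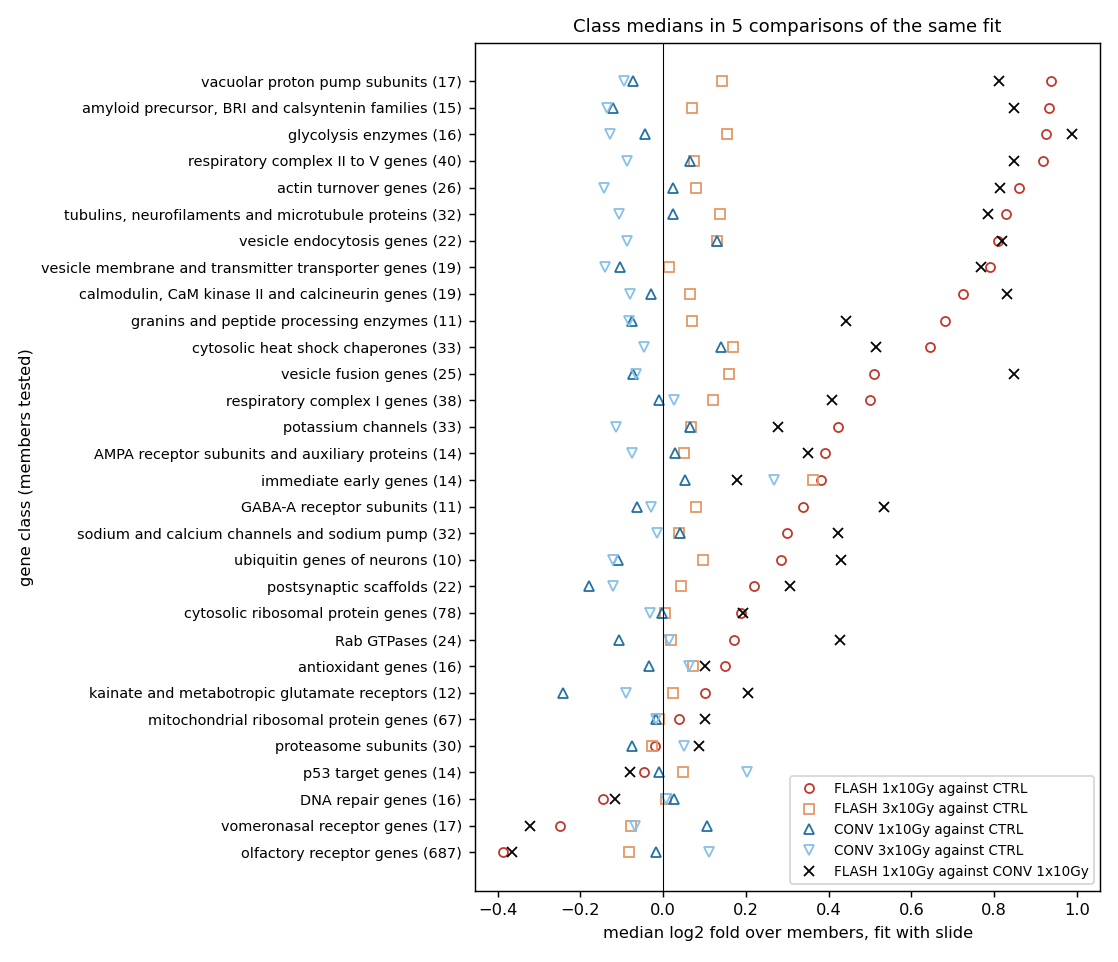
Median log2 fold over the tested members of each class (horizontal, fit with slide) in CA3 neurons for the irradiated groups against CTRL. Black crosses are FLASH 1x10Gy against CONV 1x10Gy. Against CTRL, FLASH 1x10Gy lies at 0.92 for glycolysis and for complexes II to V, where the other groups lie between -0.13 and 0.16. Without slide, which is not plotted, FLASH 3x10Gy lies at 0.40 and 0.37 there.

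FLASH 1x10Gy was also set against CONV 1x10Gy, the same dose at conventional dose rate. These mice share slides 4 and 5 and plate 3, apart from CONV 1x10Gy mouse C on slide 3 and plate 2. With slide 649 genes were higher in FLASH 1x10Gy (6.48%) and 216 lower (2.16%), and without slide edgeR called none, with 569 genes at unadjusted p under 0.05 (5.68%), against 2159 (21.5%) with slide. The mice were kept apart in both fits upward for 4.75% of genes and downward for 4.68%. *Hspa8* was 1.46 higher in FLASH 1x10Gy (adjusted p = 1.03e-05), *Aldoa* 1.57 (5.46e-06) and *Atp6v0c* 1.78 (6.46e-07), and *Gria2* differed by 0.28 (adjusted p = 0.5). In *Hspa8* CONV 1x10Gy mouse C, at 1350 CPM, was above all FLASH 1x10Gy mice, so that the groups overlapped without slide. Members called higher were 12 of 16 for glycolysis, 23 of 40 for complexes II to V, 5 of 38 for complex I, 12 of 17 for the proton pump, 12 of 22 for endocytosis and 16 of 26 for actin turnover, with medians of 0.99, 0.85, 0.41, 0.81, 0.82 and 0.81. Those that kept the mice apart upward in both fits were fewer, in the same order 5, 3, 7, 2, 2 and 3, except in complex I. Background shares were 75.3% and 69.2% in CONV 1x10Gy mice A and B and 49.8% in mouse C, and mice A and B had the lowest counts of this group, 356519 and 284108. Their part in the difference was not tested. Leaving out each FLASH 1x10Gy or CONV 1x10Gy mouse in turn gave 45 to 710 genes higher and 3 to 279 lower.

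In the other subregions of the same 6 mice the comparison gave 254 rises (2.53%) and 312 falls (3.11%) in DG neurons and 10 of each (0.0998%) in CA1 neurons. Genes apart upward were 7.06% in DG and 3.51% in CA1, and apart downward 5.67% and 3.94%. *Hspa8* had a fold of 0.80 in DG (adjusted p = 0.0124) and 0.94 in CA1 (adjusted p = 0.116), and *Aldoa* 0.94 (0.00375) and 1.12 (0.067). The difference of the folds between subregions was tested within mice with limma. For *Hspa8* it was 1.17 higher in CA3 than in DG (adjusted p = 0.276) and 1.06 higher than in CA1 (adjusted p = 0.323), and for *Aldoa* 1.04 (0.345) and 0.86 (0.468), so no difference between subregions passed the test for either gene. Across all genes 2 folds were higher in CA3 than in DG (0.02%) and 2 higher than in CA1 (0.02%), none was lower, and 944 and 947 had an unadjusted p under 0.05. Class medians of this difference against DG were 0.41 for glycolysis, 0.45 for complexes II to V, 0.54 for the proton pump and 0.59 for microtubule genes, against 0.03 for all genes. Against CA1 they were 0.25, 0.44, 0.46 and 0.35 in the same order, against 0.04. The classes also had folds above 0 in the other subregions. Their medians with slide were 0.52, 0.48, 0.46 and 0.39 in DG and 0.74, 0.60, 0.72 and 0.57 in CA1, against 0.01 and -0.01 for all genes. These class medians were not tested.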

How the data were processed

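The counts were deposited by the authors as whole numbers per probe: the GeoMx pipeline trimmed, stitched and aligned the reads and collapsed reads that shared a molecular identifier, with no scaling or filter. Such deposited counts were used as they are, with 19965 probes summed to 19962 genes. Depth limits dim genes most. The authors themselves scaled by TMM and fitted a mixed model with slide as random intercept.

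Here all 15 CA3 neuron libraries met the read and signal limits of the study. Genes above the limit of quantification (the negative probes' geometric mean multiplied by the square of their geometric SD) in at least 5% of the libraries kept were tested, 10020 in all. Tests were edgeR 4.0.16 quasi-likelihood (robust, TMM, 2-sided) in R 4.3.3 and, for differences between subregions, limma 3.58.1. Log2 CPM used a prior count of 2, and slide effects were removed with treatment kept. Class members and lists were chosen with earlier results of these data known.

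Named are *Hspa8*, *Aldoa*, the 8 largest rises and falls among genes apart in both fits, up to 3 leading members of each list and 11 genes the study names, 106 in all, of which some are not reported here; other symbols were chosen after their values were seen. Alternatives were DESeq2, other scalings, filters and covariates, and each mouse left out in turn.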

Additional observations from a re-analysis of the deposited data

Results flagged for a closer look

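Of the genes tested in 3 subregions of the same mice, 4 had a log2 fold of FLASH 1x10Gy against CTRL that differed between subregions with slide in the limma fit, and groups of 3 mice are too small for a search for outlying mice. *Sst*, the peptide of a class of interneurons, had a fold 2.65 higher in CA3 than in DG (adjusted p = 0.0123). In CA3 it was at 99.5, 134 and 109 CPM in CTRL and 331, 82.6 and 105 CPM in FLASH 1x10Gy, so FLASH 1x10Gy mouse A alone was high. In DG it was at 52.6, 45.2 and 113 CPM in CTRL and 43.3, 44.2 and 38.5 CPM in FLASH 1x10Gy, where CTRL mouse C was high; these are the 2 mice of slide 4. *Vgf*, a neurosecretory granin, had a fold 2.10 higher in CA3 than in DG (adjusted p = 0.0123), at 227, 187 and 109 CPM in CTRL and 265, 209 and 278 CPM in FLASH 1x10Gy in CA3. *Spock1*, a proteoglycan used here as a CA3 marker, had a fold 2.12 higher in CA3 than in CA1 (adjusted p = 0.0325), and *Tubb2b*, a beta tubulin, 2.37 (adjusted p = 0.0260). *Spock1* in CA3 was at 168, 157 and 93.8 CPM in CTRL and 237, 160 and 203 CPM in FLASH 1x10Gy, and *Tubb2b* in CA1 at 56.0, 60.6 and 74.7 CPM in CTRL and 16.8, 47.3 and 33.2 CPM in FLASH 1x10Gy. In CA3 the mice of all 4 genes overlapped between the groups, and none of the 4 differences was called without slide.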

How the results depend on the processing

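With 3 mice a group on few shared slides, the calls rest on slide estimates and on CTRL mouse C. Against 298 rises and 49 falls, there were 0 rises and 0 falls with no slide term, with plate in place of slide, with slide and plate, with the background share beside slide or without slide, with the 6 libraries alone, with slide as a random block in limma and with the study's mixed model; unadjusted p under 0.05 was reached by 397 to 1643 genes there. Falls were 30 with no gene filter, 83 with the strict filter and 1 with DESeq2. Genes apart upward numbered 1319, 480 and 420, and downward 792, 357 and 322, with no gene filter, the strict filter, and the background share without slide. With each mouse left out in turn there were 7 to 466 rises, 1 to 94 falls, 816 to 1440 genes apart upward and 507 to 1147 downward. Rises and falls were 7 and 1 without CTRL mouse C, 35 and 6 without FLASH 1x10Gy mouse A, 82 and 7 without CONV 1x10Gy mouse B, and 179 and 22 without CONV 1x10Gy mouse C. Falls were 32 and rises 202 without CTRL mouse B, and 14 and 185 without FLASH 3x10Gy mouse C. Counts were higher without CTRL mouse A (466 and 87), FLASH 1x10Gy mouse B (339 and 93) and CONV 3x10Gy mouse C (393 and 94). Leaving out a CTRL or FLASH 1x10Gy mouse leaves fewer mice to keep apart, which by itself allows more genes to do so. The calls of FLASH 1x10Gy against CONV 1x10Gy were 0 and 0 without slide and 45 to 710 higher and 3 to 279 lower with a mouse left out. The difference from DG was called for 0 genes without slide and 0 to 2 higher and 0 lower with a mouse left out, and that from CA1 for 0 without slide and 0 to 3 higher and 0 lower. Subtracting the negative probe mean moved the median fold of all genes to 0.17.

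Of the 106 named genes 65 were called, and each of the 8 settings with no call lost all 65. The fold changed sign for *Cacng7* (-0.18 with slide and plate, -0.11 with the background share beside slide, and -0.27 to 0.94 with a mouse left out, below 0 without CTRL mouse C or FLASH 1x10Gy mouse A), *Grik4* (-0.075 with slide and plate, -0.017 with the strict filter, -0.018 to 0.21 with a mouse left out, below 0 without CTRL mouse C), *Mrpl58* (-0.0028 with slide and plate, -0.0062 to 2.10 with a mouse left out, below 0 without CTRL mouse C) and *Opalin* (0.00036 with the background share beside slide, -0.45 to 0.10 with a mouse left out, above 0 without FLASH 1x10Gy mouse A). The cause was not tested. No paired analysis was possible because the mouse letters name different mice in each treatment and pair no mice across groups.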
